A study of Homo sapiens with 6 samples.

Results

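The genes described here are 10 that write, erase or read N6-methyladenosine (m6A) in RNA, chosen by symbol: the methyltransferase subunits METTL3, METTL14 and WTAP, the demethylases FTO and ALKBH5, and the YTH-domain readers YTHDF1, YTHDF2, YTHDF3, YTHDC1 and YTHDC2. All 10 had a row among the 26810 gene rows, and all 10 passed the filter on low values. RNA was measured in 3 libraries made with the control guide sgNS and 3 made with sgMETTL1.3, a guide against METTL1. All 6 came from a single Cas9-expressing clone of U-937, a human leukemia line with monocytic features, and each culture had received its guide by lentivirus and been selected in hygromycin (200 µg/ml) and blasticidin (10 µg/ml). Cells were collected 8 to 10 days after transduction. Each arm had 1 guide, and there was no rescue. The labels do not call the replicates separate cultures, and the p-values rest on their spread, which may be technical.

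N6-methyladenosine is placed on messenger RNA in the nucleus by a complex in which METTL3 is the catalytic subunit, METTL14 supports the binding of substrate RNA, and WTAP holds the pair in nuclear speckles. FTO and ALKBH5 remove the mark by oxidation, and proteins with a YTH domain bind it. In acute myeloid leukemia METTL3, METTL14, FTO, ALKBH5 and YTHDF2 have each been studied as genes on which leukemic cells depend. METTL1, the gene targeted here, makes a different mark, N7-methylguanosine on tRNA.

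METTL1 was lower in every sgMETTL1.3 library than in any control. Its values were 19.7, 22.003 and 20.3 in the controls and 8.28, 5.94 and 7.42 with sgMETTL1.3, a log2 fold change of -1.41 (limma, SE 0.131, adjusted p = 2.41e-06), and -1.08 as TPM. The deposited values were TPM multiplied by a factor per library that equalised ERCC spike-ins, synthetic RNAs added to every sample. Library totals with the spike-ins counted ran from 1129183 to 1227168 in the controls and from 831969 to 1025123 with sgMETTL1.3. Relative to TPM restored without spike-in rows, the factor was 1.09 to 1.19 in controls and 0.794 to 0.987 with sgMETTL1.3. Each result is therefore given on the spike-in scale and as that restored TPM. On the spike-in scale the median log2 fold change of all 12449 genes tested was -0.32, and as TPM it was 0.015. The library sgMETTL1.3 replicate 1 differed from the other 2 of its group along the GC content of transcripts (Spearman 0.837 across genes, which are not independent replicates). Of 10 myeloid markers, 8 were at 1 or above in every library, and the defining markers MPO and CD14 were below 1 in all. The summed level of these 10 was 1372 to 1503 in controls and 568 to 776.7 with sgMETTL1.3 (1257 to 1265 and 715.6 to 787.1 as TPM). Most of that drop came from lysozyme, LYZ, and the protease CTSG. LYZ fell from a mean of 404 to 72.1 and CTSG from 447 to 111, both also past the threshold as TPM. CD68 did not pass on the spike-in scale (-0.06) and rose as TPM (0.31). LYZ, CTSG and CD68 were named after their values were seen. Of the 8 myeloid markers tested, 6 fell and none rose, beside 49.3% and 6.4% of all genes. As TPM 5 fell and 1 rose, beside 25.3% and 24.8%. All 5 epithelial markers, 6 of 7 erythroid and megakaryocytic markers and CD3D, CD3E and CD3G were below 1. The list of T and natural killer cell markers summed to 306.3 to 340.5 in controls and 161 to 243.9 with sgMETTL1.3. As TPM the sums were 269.5 to 291.3 and 202.8 to 247.2. Nearly all of this came from NKG7. CD2, named after its values were seen, went the other way, from 2.78, 2.87 and 2.51 to 4.85, 5.17 and 5.81. B cell markers summed to 7.85 to 10.1 and 6.31 to 10.96 (7.19 to 8.62 and 7.63 to 11.1 as TPM). Those of fibroblasts and endothelium summed to 46.4 to 50.2 and 36.02 to 40.3, most of it from PECAM1. As TPM these groups overlapped, at 42.2 to 42.5 and 39.9 to 45.4. COL1A1 in that list, named after its values were seen, went from 1.03, 1.12 and 1.03 to 2.78, 1.65 and 2.15. The part of these levels in the results was not tested.

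METTL3, METTL14, FTO and YTHDC2 were lower with sgMETTL1.3 on both scales, and YTHDF3 was the 1 member that was higher, also on both. WTAP, YTHDF1 and YTHDF2 fell on the spike-in scale and did not pass as TPM. ALKBH5 and YTHDC1 passed on neither scale in the main fit, which used all 6 libraries without a replicate block or GC correction. Together 7 of 10 fell and 1 rose on the spike-in scale, where 49.3% of all genes tested fell and 6.4% rose. As TPM 4 fell and 1 rose, against 25.3% and 24.8% of the 12447 genes tested. With 10 members, a few genes separate these counts from the background, and they are not read as a property of the m6A genes as a group. Their median log2 fold change was -0.41 on the spike-in scale and -0.05 as TPM. The values of the groups did not overlap for 7 lower members and 1 higher member on the spike-in scale (53.4% and 8.66% of all genes), and for 5 and 1 as TPM (32.1% and 30.9%).

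**Figure D1:**
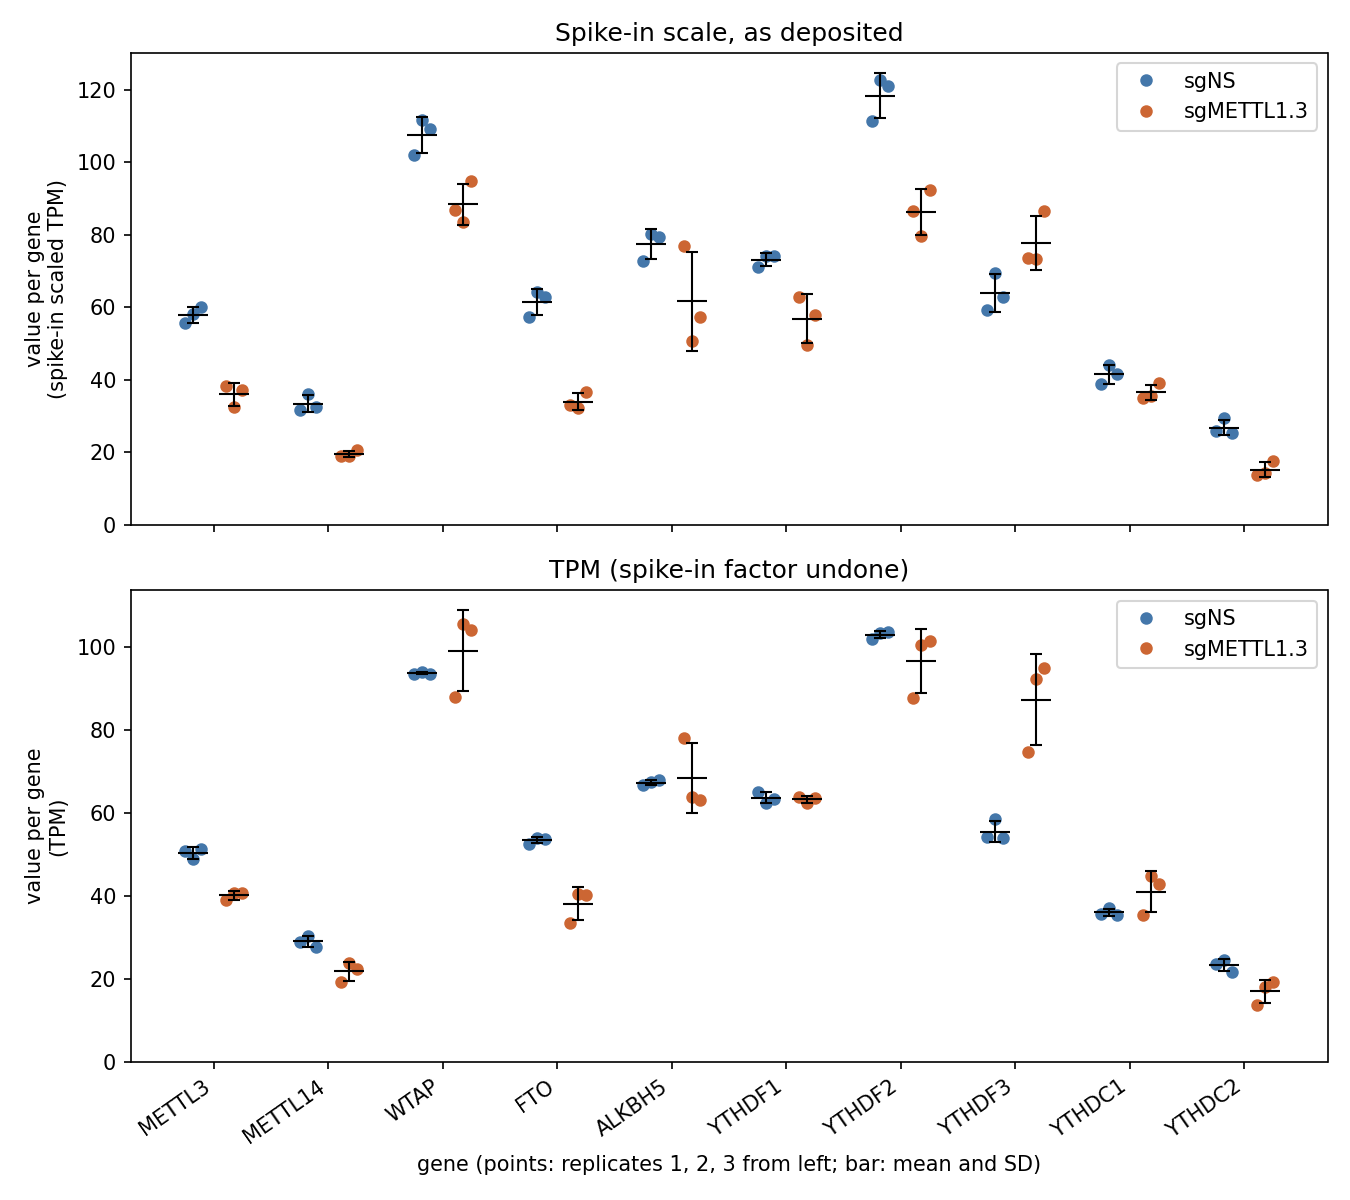
Values of the 10 m6A genes in each library, on the spike-in scale as deposited (upper panel) and as TPM (lower panel), with points for replicates 1, 2 and 3 and bars for the mean and SD of 3 libraries. METTL3, METTL14, FTO and YTHDC2 sit lower with sgMETTL1.3 in both panels, and YTHDF3 sits higher in both.

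Promoter sequences are shown for 2 members that fell on both scales, METTL3 and YTHDC2, and 2 that passed on neither in the main fit, ALKBH5 and YTHDC1. For METTL14, WTAP and FTO the promoter began within an annotated exon and was not shown, so the choice does not represent the outcomes. The sequences are from RefSeq (GRCh38.p14), run 5′ to 3′ along the gene's strand, begin 250 bases before the annotated start, and stop at the start or at the first base of an exon in GENCODE release 29. The stretch of ALKBH5 lies within the span that GENCODE gives the gene, because the RefSeq start is further downstream. Capitals mark GGGCGG, the box bound by SP and KLF factors, and CCAAT, the box bound by NFY, each searched on both strands.
METTL3, chr14:21511376-21511590, minus strand: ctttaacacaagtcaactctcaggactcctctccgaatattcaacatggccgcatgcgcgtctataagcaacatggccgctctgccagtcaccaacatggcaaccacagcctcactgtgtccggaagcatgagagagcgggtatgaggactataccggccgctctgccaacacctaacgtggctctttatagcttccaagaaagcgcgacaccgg
YTHDC2, chr5:113513444-113513682, plus strand: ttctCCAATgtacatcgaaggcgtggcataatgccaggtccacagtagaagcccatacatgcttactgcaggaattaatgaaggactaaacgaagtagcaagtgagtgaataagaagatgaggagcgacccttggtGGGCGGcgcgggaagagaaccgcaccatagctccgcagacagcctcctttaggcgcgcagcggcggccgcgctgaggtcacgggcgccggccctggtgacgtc
ALKBH5, chr17:18183578-18183827, plus strand: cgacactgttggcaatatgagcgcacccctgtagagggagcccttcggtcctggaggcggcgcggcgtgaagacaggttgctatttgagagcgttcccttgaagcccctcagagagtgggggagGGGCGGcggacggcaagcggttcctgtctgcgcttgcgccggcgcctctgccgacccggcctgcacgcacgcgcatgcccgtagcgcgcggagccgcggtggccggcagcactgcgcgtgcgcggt
YTHDC1, chr4:68350091-68350340, minus strand: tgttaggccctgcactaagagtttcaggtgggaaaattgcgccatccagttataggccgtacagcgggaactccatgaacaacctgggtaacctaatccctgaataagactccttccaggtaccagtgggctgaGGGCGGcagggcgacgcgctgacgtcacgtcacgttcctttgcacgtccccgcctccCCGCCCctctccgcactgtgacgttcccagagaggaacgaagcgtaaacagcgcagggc
METTL3 held neither motif, and YTHDC2 held 1 GGGCGG and 1 CCAAT. ALKBH5 held 1 GGGCGG and YTHDC1 held 2. RefSeq promoters matched 9 of the 10 members, all but YTHDF3, some with more than 1 start. Over the full 250 bases GGGCGG occurred in 6 of the 9 and CCAAT in 4, against 42.6% and 32.008% of all 35116 promoters. A member counted when any of its starts held the motif, whereas the percentages here and below are per promoter, so the measures are unlike. WTAP and YTHDF2 had 2 starts each and held CCAAT at 1 of them. The E-box CACGTG, bound by MYC and MAX, occurred in YTHDF1 alone of the 9 (6.34% of all promoters), the ETS motif CCGGAAGT in METTL14 alone (3.42%), and the motif of NRF1 in none (1.03%). A match is a string of letters and does not show that a factor binds.

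The catalytic subunit METTL3 and its partner METTL14 fell together. METTL3 (GRCh38 chromosome 14, 21498133 to 21511375, minus strand, 11 exons in its longest coding transcript) had values of 55.6, 58.0 and 60.0 in the controls and 38.4, 32.4 and 37.1 with sgMETTL1.3. Every treated library lay below every control. The log2 fold change was -0.67 (limma, SE 0.105, adjusted p = 0.000128) on the spike-in scale and -0.32 as TPM (adjusted p = 0.00404), where the means were 50.3 ± 1.35 and 40.1 ± 1.06 (SD, n = 3). METTL3 overlaps TOX4, a gene on the opposite strand, over 1043 bases. Reads from that stretch may be mixed if they were not counted by strand.

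METTL14 lies on the plus strand of chromosome 4 at 118685368 to 118715433. Its values were 31.6, 36.1 and 32.5 in the controls and 19.0, 18.8 and 20.5 with sgMETTL1.3, again without overlap. This is a log2 fold change of -0.75 (limma, SE 0.108, adjusted p = 6.82e-05), and of -0.40 as TPM (adjusted p = 0.00968). After removal of the part that followed GC content the value was -0.59, and -0.24 as TPM with that correction, still past the threshold in both. The gene has a GC content of 40.0%, among the lowest of the 10. As TPM its lowest treated value, 19.3, came from replicate 1, against 23.7 and 22.5 in the other 2 libraries.

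WTAP, the targeting subunit, had a smaller fold change and passed on the spike-in scale only. Its values were 102, 112 and 109 in the controls and 86.7, 83.7 and 94.8 with sgMETTL1.3, a log2 fold change of -0.28 (limma, SE 0.0988, adjusted p = 0.0267). As TPM the sign turned to 0.08, with a 95% interval from -0.11 to 0.27 (adjusted p = 0.454), and the groups overlapped. It passed in the opposite direction, as higher, in TPM with the GC correction (0.19, limma adjusted p = 0.0036) and in TPM without sgMETTL1.3 replicate 1 (0.16, adjusted p = 0.000291). The call on the spike-in scale was lost without sgNS replicate 2 (-0.26, adjusted p = 0.133) and without sgNS replicate 3 (-0.27, adjusted p = 0.133). WTAP lies on chromosome 6 at 159725585 to 159756319, wholly within the annotated span of SOD2 on the opposite strand. Whether reads were counted by strand is not given in the sources used here, and those of the 2 genes may be mixed. SOD2, a mitochondrial superoxide dismutase, had means of 60.2 ± 3.35 and 61.0 ± 4.58 (SD, n = 3), for a log2 change of 0.02, and rose as TPM (0.37).

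The demethylase FTO had the lowest log2 fold change of the 10, at -0.84 (limma, SE 0.104, adjusted p = 2.11e-05). The controls stood at 57.3, 64.3 and 62.8 and the sgMETTL1.3 libraries at 33.1, 32.2 and 36.6. As TPM the means were 53.4 ± 0.802 and 38.1 ± 3.93 (SD, n = 3), for a log2 change of -0.48 (adjusted p = 0.00343), and the groups did not overlap on either scale. Among all genes tested, 12.4% had a fold change as low as that of FTO or lower on the spike-in scale. FTO spans chromosome 16 from 53701692 to 54158512, and its 5′ end overlaps RPGRIP1L, a gene of the primary cilium on the opposite strand, over 2247 bases. RPGRIP1L also fell, from 5.03 ± 0.233 to 2.22 ± 0.248 (SD, n = 3), for a log2 change of -0.91. Its level was far below that of FTO.

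For ALKBH5, the other demethylase, the value lay near the threshold, and the call changed with 1 library and with several settings. The control values were 72.8, 80.1 and 79.4, and the sgMETTL1.3 values were 77.0 in replicate 1 but 50.7 and 57.4 in replicates 2 and 3. The groups therefore overlapped, and the log2 fold change of -0.34 (95% interval -0.65 to -0.03) did not pass after adjustment (by limma, adjusted p = 0.0583). Without sgMETTL1.3 replicate 1 it was -0.51 (adjusted p = 8.075e-06), and after the GC correction -0.38 (adjusted p = 0.000143). With all 6 libraries, -0.34 passed in limma with a replicate block (adjusted p = 0.0320) and with a filter at a mean of 5 (adjusted p = 0.0481). As TPM it was 0.01 with all libraries (interval -0.20 to 0.23) and -0.0844 without that replicate, where it passed as lower (adjusted p = 0.0206). ALKBH5 has the highest GC content of the 10, at 52.3%, and replicate 1 stood at 78.0 TPM against 63.9 and 63.0 in the other treated libraries. Its part in the result, beyond these values, was not tested. The gene lies on chromosome 17 at 18183078 to 18209954.

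The cytoplasmic readers of the YTHDF family moved in different directions. YTHDF2, which recruits the CCR4-NOT deadenylase to methylated transcripts, had values of 111, 123 and 121 in the controls and 86.6, 79.8 and 92.4 with sgMETTL1.3. The log2 fold change was -0.45 (limma, SE 0.101, adjusted p = 0.00183), and -0.09 as TPM (interval -0.26 to 0.07, adjusted p = 0.2999). YTHDF2 lies on chromosome 1 at 28736621 to 28769775. Of the 50-base words in its annotated transcripts, 8.71% also occurred in transcripts of other genes, the pseudogene YTHDF2P1 among them. For the other 9 members that share was 3.34% or less.

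YTHDF1, a reader linked to translation of methylated transcripts, had values of 71.0, 74.2 and 74.1 in the controls and 62.9, 49.5 and 57.9 with sgMETTL1.3. Its log2 fold change was -0.37 (limma, SE 0.109, adjusted p = 0.0118), and without sgNS replicate 2 it was -0.35 and did not pass (adjusted p = 0.0507). As TPM the 6 libraries lay between 62.4 and 65.1, with means of 63.7 ± 1.35 and 63.3 ± 0.754 (SD, n = 3), for a log2 change of -0.01 (interval -0.14 to 0.12). It is encoded on chromosome 20, minus strand, at 63195429 to 63216234.

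YTHDF3, on chromosome 8 at 63168553 to 63212786, was the member that rose. The control values were 59.1, 69.5 and 62.9, and those with sgMETTL1.3 were 73.7, 73.2 and 86.5. The lowest treated library stood above the highest control, by a small margin on this scale. The log2 fold change of 0.28 (limma, SE 0.109, adjusted p = 0.0427) placed it above 90.6% of all genes tested. That call was lost without sgNS replicate 1 (0.23, adjusted p = 0.175), sgNS replicate 2 (0.34, adjusted p = 0.0531), sgNS replicate 3 (0.27, adjusted p = 0.138) or sgMETTL1.3 replicate 3 (0.20, adjusted p = 0.122). As TPM the values were 54.2, 58.4 and 53.8 against 74.7, 92.2 and 94.9, a wider gap, and the log2 fold change was 0.64 (SE 0.100, adjusted p = 0.00211). It was 0.74 as TPM without sgMETTL1.3 replicate 1.

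Of the readers in the YTHDC family, YTHDC2 fell and YTHDC1 did not pass. YTHDC1, the nuclear reader involved in splicing and export, had values of 38.8, 44.1 and 41.5 in the controls and 34.9, 35.5 and 39.0 with sgMETTL1.3, and the groups overlapped narrowly. Its log2 fold change was -0.18 (interval -0.41 to 0.04, limma adjusted p = 0.158) and 0.17 as TPM (interval -0.05 to 0.40, adjusted p = 0.169). It passed as higher in TPM with the GC correction (0.31, adjusted p = 0.000487) and in TPM without sgMETTL1.3 replicate 1 (0.27, limma adjusted p = 0.000168). It is encoded on chromosome 4, minus strand, at 68310387 to 68350089.

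YTHDC2, a reader that is also an RNA helicase, was at 25.7, 29.3 and 25.4 in the controls and 13.6, 14.3 and 17.5 with sgMETTL1.3. No treated library reached the lowest control. The log2 fold change was -0.79 (limma, SE 0.124, adjusted p = 0.000134), and -0.44 as TPM (adjusted p = 0.0229). With the GC correction it was -0.63 on the spike-in scale and -0.29 as TPM, and both passed. YTHDC2 has 30 exons in its longest coding transcript and lies on chromosome 5 at 113513683 to 113595285.

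**Figure D2:**
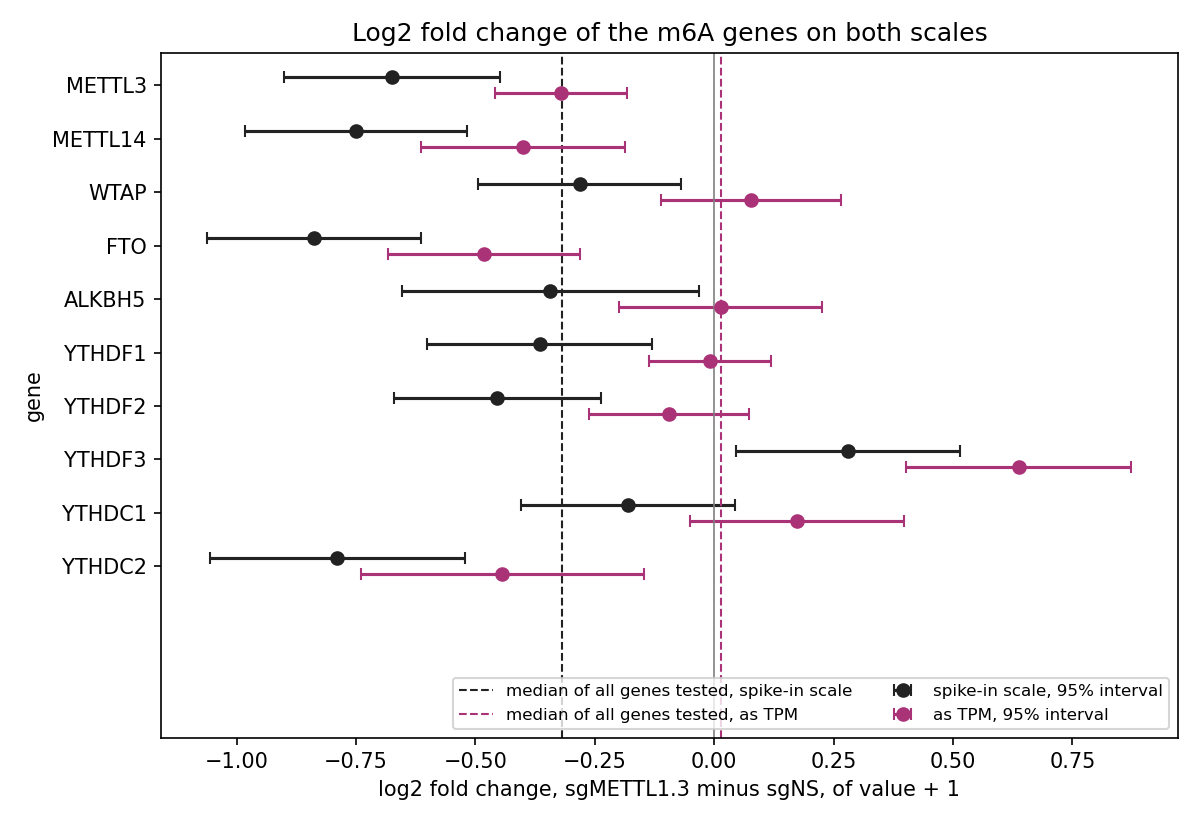
Log2 fold change of each m6A gene (sgMETTL1.3 minus sgNS, of value + 1), with 95% intervals from the limma fit, on the spike-in scale (black) and as TPM (purple), and dashed lines for the median of all genes tested on each scale. FTO lies farthest to the left at -0.84 and -0.48, and YTHDF3 is the gene on the right at 0.28 and 0.64.

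Ratios of members within a library do not depend on the scaling factor of that library, and 6 were compared. With 3 libraries against 3, an exact two-sided permutation test cannot go below p = 0.1, and 4 ratios reached that value (0.15 after Benjamini-Hochberg adjustment over the 6), so none could pass 0.05. The ratio of YTHDF3 to YTHDF2 was 0.531, 0.565 and 0.520 in the controls and 0.851, 0.917 and 0.936 with sgMETTL1.3, a difference of 0.74 on the log2 scale without overlap. The shift was of similar size whichever library was left out, from 0.71 to 0.78.

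Within the writer complex the ratio of METTL14 to METTL3 averaged 0.578 ± 0.0410 in controls and 0.543 ± 0.0444 with sgMETTL1.3 (SD, n = 3; two-sided exact permutation p = 0.5), and the groups overlapped. The ratio of WTAP to METTL3 was higher in each treated library than in any control, going from 1.86 ± 0.0555 to 2.47 ± 0.181 (SD, n = 3; two-sided exact permutation p = 0.1). Among the erasers the ratio of FTO to ALKBH5 was 0.788, 0.802 and 0.792 in the controls. In the sgMETTL1.3 libraries it was 0.430 in replicate 1 and 0.635 and 0.638 in the others, so replicate 1 stood apart while all 3 were below the controls. Without that library the log2 difference was -0.32 in place of -0.51.

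For the readers, the ratio of YTHDC2 to YTHDC1 went from 0.646 ± 0.0301 to 0.414 ± 0.0311 (SD, n = 3; two-sided exact permutation p = 0.1), a log2 difference of -0.64. The ratio of YTHDF1 to YTHDF2 was 0.618 ± 0.0177 and 0.658 ± 0.0598 (SD, n = 3; two-sided exact permutation p = 0.4), and its groups overlapped.

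**Figure D3:**
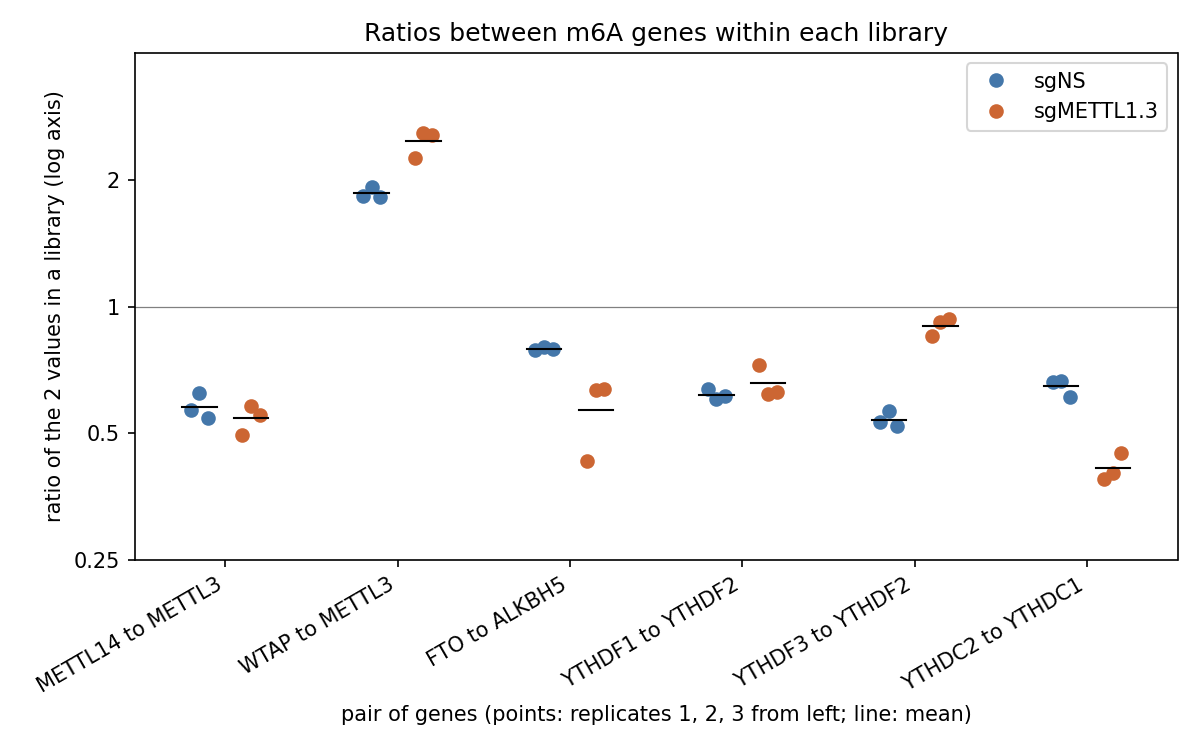
Ratio of 2 m6A genes in each library (log axis), with points for replicates 1, 2 and 3 and a line at the group mean. The groups are apart for WTAP to METTL3, FTO to ALKBH5, YTHDF3 to YTHDF2 and YTHDC2 to YTHDC1, and they overlap for METTL14 to METTL3 and YTHDF1 to YTHDF2.

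The order of the members by level, compared as TPM (per transcript length), differed between the groups among the highest and in the middle. In controls YTHDF2 was highest at 103 ± 0.829 TPM, followed by WTAP at 93.6 ± 0.237, ALKBH5 at 67.3 ± 0.595, YTHDF1 at 63.7 ± 1.35, YTHDF3 at 55.5 ± 2.55, FTO, METTL3, YTHDC1 at 36.1 ± 0.900, METTL14 at 29.05 ± 1.29 and YTHDC2 at 23.3 ± 1.49 (SD, n = 3). Of these neighbours, only YTHDF3 and FTO had library ranges that overlapped. With sgMETTL1.3 the first 3 were WTAP at 99.1 ± 9.75, YTHDF2 at 96.6 ± 7.70 and YTHDF3 at 87.3 ± 11.01 (SD, n = 3), and each overlapped the next. ALKBH5 at 68.3 ± 8.43 came next, and its range overlapped those of both YTHDF3 and YTHDF1. YTHDC1, METTL3 and FTO overlapped each other near 40 TPM, and METTL14 at 21.8 ± 2.31 and YTHDC2 at 17.0 ± 2.85 (SD, n = 3) remained the lowest.

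The genes whose pattern was most like that of the member with the highest and the lowest fold change were found by Pearson correlation of log2(TPM + 1) over the 6 libraries. For YTHDF3 they were CHD6, a chromatin remodeller (0.9999), DGKI, a diacylglycerol kinase (0.9999), and PPP3CB, a calcineurin subunit (0.9993). For FTO they were HSPA4L, a heat shock protein (0.9998), NOP58, a nucleolar protein of box C/D particles (0.9998), and PNPT1, a mitochondrial exoribonuclease (0.9997). Values this high were common among 11880 genes compared: 176 exceeded 0.99 for YTHDF3 and 648 for FTO. The points share 6 libraries in 2 groups, so the correlations are a description.

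Counts in the related lists are read against all genes tested, of which 49.3% fell and 6.4% rose on the spike-in scale and 25.3% fell and 24.8% rose as TPM. The other subunits of the m6A writer complex gave 3 lower and none higher of 5 tested on the spike-in scale, a share near that background, and 1 higher and none lower as TPM. The scaffold VIRMA, listed as KIAA1429, fell from 59.2 ± 3.03 to 37.9 ± 3.73 (SD, n = 3), for a log2 change of -0.63 (by limma, adjusted p = 0.000237). VIRMA missed the threshold as TPM, at -0.28 (adjusted p = 0.0575), and passed as lower in TPM without sgMETTL1.3 replicate 1 (adjusted p = 0.00547). It had no GC value, so the GC correction left its own values unchanged, at -0.28 as TPM. Its limma adjusted p of 0.0222 in that fit differs only through the other genes, and it is not a GC-corrected result for VIRMA. ZC3H13, which keeps the complex in the nucleus, fell with -0.55 and the ubiquitin ligase CBLL1 with -0.49, and neither passed as TPM (-0.19 and -0.14). The 1 higher as TPM was RBM15, an RNA-binding adaptor, at 0.26, named after its value was seen.

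Other m6A and m6Am methyltransferases and cofactors numbered 6, of which 4 fell on the spike-in scale, while 2 fell and 1 rose as TPM, beside the 49.3% and 25.3% of all genes that fell. METTL5, which methylates 18S rRNA, fell from 155 ± 2.25 to 84.9 ± 5.65 (SD, n = 3), for a log2 change of -0.86 (by limma, adjusted p = 9.18e-06), and -0.50 as TPM. ZCCHC4, its counterpart for 28S rRNA, fell with -0.76, and -0.43 as TPM. METTL16, which methylates U6 snRNA and the MAT2A transcript, fell with -0.46 and did not pass as TPM (-0.11). METTL4 fell with -0.38 and stood at -0.04 as TPM, where it did not pass; it also lost its call without sgNS replicate 2 (-0.30, adjusted p = 0.138), with the GC correction (-0.20, adjusted p = 0.0862) and without the filter on low values (adjusted p = 0.0548).

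Of 10 tested proteins reported to bind m6A RNA outside the YTH family, 7 fell and none rose on the spike-in scale (median -0.38). Of all genes tested, 49.3% fell and 6.4% rose (median -0.32). As TPM, 4 of the 10 fell and 1 rose, where 25.3% and 24.8% of all genes did. IGF2BP3, an oncofetal protein that stabilises bound mRNA, fell from 86.5 ± 3.16 to 39.7 ± 4.82 (SD, n = 3), for a log2 change of -1.11 (by limma, adjusted p = 3.63e-06) and -0.75 as TPM. Its relative IGF2BP2 fell with -0.77, and -0.42 as TPM, and IGF2BP1 was listed at 0 in all libraries. ELAVL1, a binder of AU-rich elements, fell with -0.77, and the nuclear protein HNRNPA2B1 with -0.61, and both passed as TPM (-0.41 and -0.24). The TPM call of HNRNPA2B1 was lost with the GC correction (-0.08, adjusted p = 0.0510).

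Of 13 tested genes of CCR4-NOT and other partners of YTHDF2 decay, 11 fell and none rose (median -0.63), beside 49.3% and 6.4% of all genes (median -0.32). As TPM the numbers were 8 and 2 (median -0.28), beside 25.3% and 24.8% (median 0.015). CNOT7, a catalytic subunit, fell from 122 ± 10.1 to 52.0 ± 6.30 (SD, n = 3), for a log2 change of -1.21 (by limma, adjusted p = 2.56e-06) and -0.85 as TPM. POP1, a subunit of RNase P and MRP, fell with -1.22, RIDA, the adaptor between YTHDF2 and RNase P/MRP, with -1.03 and the deadenylase CNOT6 with -0.95, and these 3 passed as TPM. CNOT3 was not analysed here.

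Genes that supply or recycle S-adenosylmethionine, the methyl donor of these enzymes, numbered 9 tested, of which 6 fell and 1 rose on the spike-in scale, beside 49.3% and 6.4% of all genes. As TPM the numbers were 5 and 2, beside 25.3% and 24.8%. MAT2B, the regulatory subunit of the synthetase, was at 90.0, 97.3 and 95.5 in the controls and 20.6, 20.1 and 23.7 with sgMETTL1.3. Its log2 fold change was -2.09 (limma, SE 0.105, adjusted p = 3.61e-08), and -1.73 as TPM (adjusted p = 5.36e-05). Its catalytic partner MAT2A, named after its values were seen, had means of 323 and 347 and did not pass (0.10, adjusted p = 0.380), but rose as TPM (0.47, adjusted p = 0.00282). AHCY, which hydrolyses S-adenosylhomocysteine, fell with -0.86, methionine synthase MTR with -0.94 and its reductase MTRR with -0.83, and all 3 passed as TPM.

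Of 17 tested transcripts that have been reported as m6A-regulated in acute myeloid leukemia, 12 fell and none rose (median -0.72), where 49.3% and 6.4% of all genes did. As TPM the numbers were 10 and 3 (median -0.36), against 25.3% and 24.8%. MYC fell with -1.57, MYB with -1.30, TNFRSF1B, a tumor necrosis factor receptor, with -1.32 and the helicase subunit MCM4 with -0.88, and all 4 passed as TPM. ASB2 and RARA, both studied as FTO targets and named after their values were seen, did not pass on the spike-in scale (0.01 and 0.08) and rose as TPM (0.36 and 0.43). AXL was below the filter and LILRB4 was not analysed here. These libraries measure transcript levels and not methylation.

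**Figure D4:**
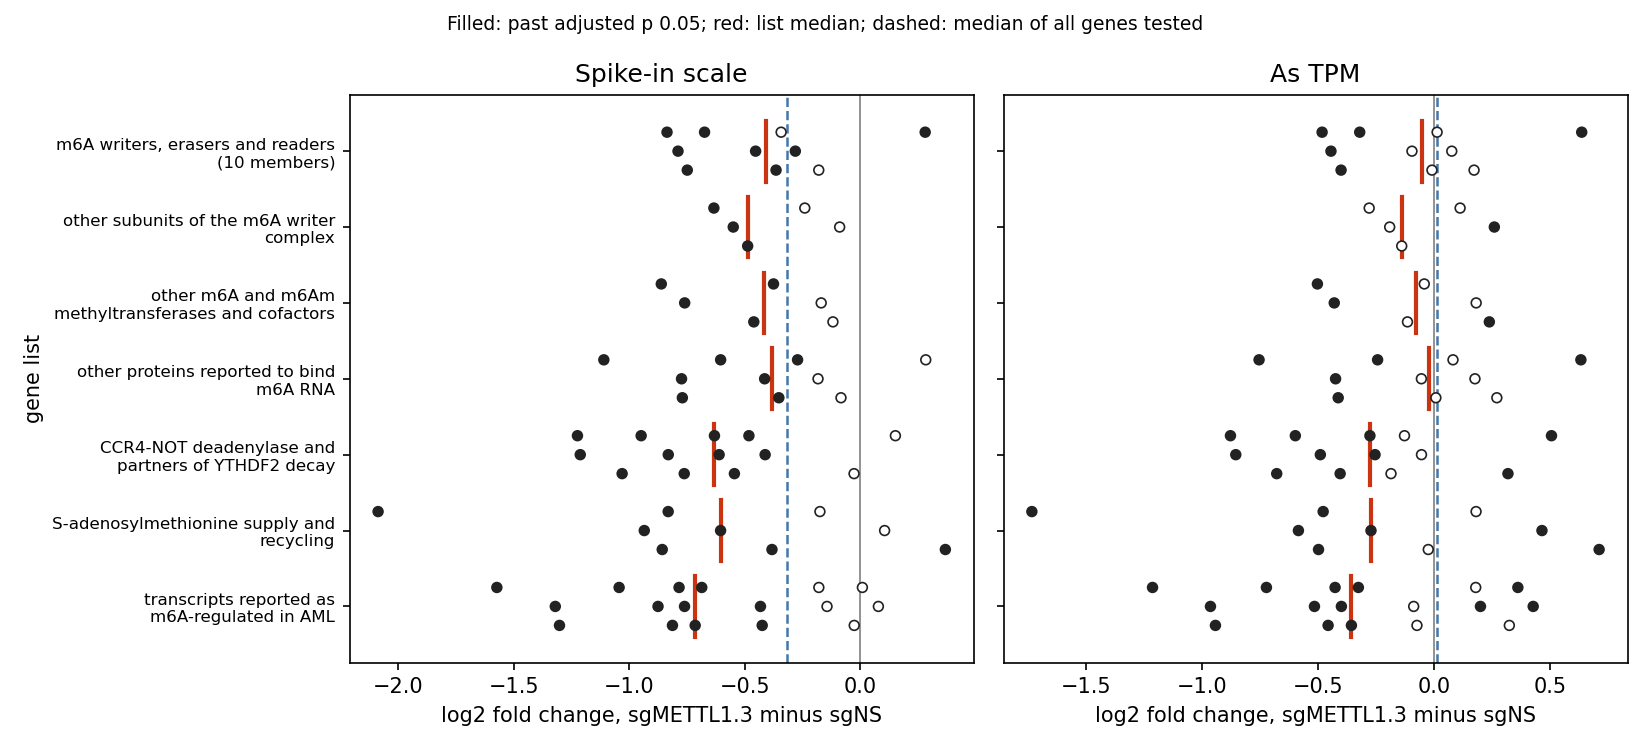
Log2 fold change of each tested gene in the m6A set and 6 related lists, on the spike-in scale (left) and as TPM (right), with filled points past the adjusted threshold of 0.05, red bars for list medians and a dashed line for the median of all genes tested. Lower members predominate on the left in every list, and on the right the medians of 3 lists, the CCR4-NOT partners, S-adenosylmethionine supply and reported m6A-regulated transcripts, lie at -0.28, -0.27 and -0.36.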

How the data were processed

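Poly(A)-selected RNA was sequenced after library preparation from 300 ng of total RNA with ERCC spike-ins, per the labels' protocols. The submitters' processing notes name cutadapt, STAR and RSEM with GRCh38 and hg38, without version. The sources used here do not give the annotation, the strand setting, the amount of spike-in, or how or when it was added. Whether the spike-in scale measures RNA per cell is therefore unknown. From the values themselves, the deposited signal is TPM (step 0.01) times a constant for each library, chosen such that 92 spike-in rows add up to 38252. As read numbers cannot be had from it, depth stays unknown and precision is limited by the number of libraries.

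Genes reaching 1 in 3 or more libraries (12449) were compared as log2(value + 1) in limma 3.58.1 (trend, robust; R 4.3.3), adjusted by Benjamini-Hochberg over all of them at 0.05. Such fold changes understate those of low genes. TPM was restored by dividing each library by its gene total over 1000000, without spike-ins. The GC correction removed a lowess curve (span 0.3) of each gene's deviation from its mean against the median GC content of its GENCODE release 29 transcripts; 94.3% of tested genes had a value. The fit was tested on simulated data. Ratios used scipy 1.17.1. The members and lists were chosen with earlier results of these data known. Named genes were METTL1, the 10 members, up to 4 called genes of smallest p per related list, and the 3 most similar genes of 2 members; others are marked in the text, and besides CNOT3 and LILRB4, 1 gene of the lists is not reported here. Older symbols were matched through RefSeq synonyms.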

Additional observations from a re-analysis of the deposited data

How the results depend on the processing

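METTL1, METTL3, METTL14, FTO and YTHDC2 kept direction and side of the threshold under all 20 alternatives. Scalings not tied to spike-ins changed the sign or the call of 5 of the other members (WTAP, ALKBH5, YTHDF1, YTHDF2 and YTHDC1). YTHDF3 stayed higher, going from 0.28 to 0.64 as TPM, 0.64 with median-of-ratios factors and 0.70 with quantile normalization. As TPM, with median-of-ratios factors and with quantile normalization the number of lower members was 4 each time (25.3%, 26.9% and 26% of all genes). In that order WTAP stood at 0.0769, 0.0783 and 0.15, ALKBH5 at 0.0137, 0.0152 and 0.0774, YTHDF1 at -0.0085, -0.0071 and 0.0589, YTHDF2 at -0.0947, -0.0933 and -0.0257, and YTHDC1 at 0.17, 0.17 and 0.21. As TPM with GC correction 3 members were higher (31.1% of all genes) and 4 lower (32.4%), with WTAP and YTHDC1 past the threshold as higher beside YTHDF3, WTAP at 0.19, YTHDF1 at -0.041, YTHDF2 at -0.0618 and YTHDC1 at 0.31, and METTL4 at 0.13. As TPM without sgMETTL1.3 replicate 1 the same 3 were higher (36.3% of all genes) and 5 lower (34.3%), ALKBH5 among them, with WTAP at 0.16, ALKBH5 at -0.0844, YTHDF1 at -0.0143, YTHDF2 at -0.0275, YTHDC1 at 0.27 and METTL4 at 0.13. The GC correction on the spike-in scale put WTAP at -0.17, no longer past the threshold, and ALKBH5 at -0.38, now past it, with and without the replicate block. It turned the log2 ratio of METTL14 to METTL3 from -0.09 to 0.0687. The cause was not tested for these shifts beyond what each construction fixes.

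Members higher numbered 0 without a filter on low values, without trend and robust, and with the replicate block (5.31%, 6.74% and 6.54% of all genes). YTHDF3 was then at 0.28 each time, with limma adjusted p of 0.0740, 0.0616 and 0.0844. ALKBH5, at -0.34, passed when the filter was a mean of 5 or more, which tests fewer genes. Leaving out 1 library gave 0 to 1 members higher and 5 to 8 lower (4.34% to 8.41% and 39.7% to 61.4% of all genes), with ranges of -0.33 to -0.24 for WTAP, -0.51 to -0.22 for ALKBH5, -0.44 to -0.27 for YTHDF1 and 0.20 to 0.34 for YTHDF3. No pairing by replicate number was seen: deviations of same-numbered libraries correlated at -0.0137, 0.0046 and -0.0385, and no control library matched its own number best. This does not show that the libraries were unpaired, because the GC difference of sgMETTL1.3 replicate 1 enters these deviations and could hide a pairing. With the replicate block WTAP (-0.28) lost its call and ALKBH5 (-0.34) gained one, and 814 genes rose and 5861 fell in place of 797 and 6142. Over all genes, TPM, median-of-ratios factors and quantile normalization gave 3093, 3142 and 2978 higher and 3147, 3344 and 3231 lower, while TPM with GC correction gave 3866 higher and TPM without sgMETTL1.3 replicate 1 gave 4445.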
